A study of Mus musculus with 8 samples.

Results

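The genes described here are the core of the NF-κB pathway: the factors *Rela*, *Relb*, *Nfkb1* and *Nfkb2* and the inhibitors *Nfkbia* and *Nfkbib*. With them are *Ikbkb* and *Ikbkg*, of the IκB kinase (IKK) complex, and the ubiquitin-editing enzymes *Tnfaip3* and *Cyld*. The genes were chosen by gene symbol, and all 10 had a row among the 15039 genes of the table. RNA sequencing covered the PFC of 8 male mice of the C57BL/6N strain (C57BL/6NCrljOri, genotype WT), all injected bilaterally with AAV at 6 weeks of age and dissected 4 weeks later. The vector AAV2/1-hsyn-RNF146-eGFP was given to 4 of the mice (Rnf146-overexpressing) and AAV2/1-hsyn-eGFP to the other 4 (eGFP-overexpressing, the controls), so that both groups carried the virus and eGFP. The hsyn promoter drives expression in neurons, whereas the RNA came from whole dissected tissue with all of its cell types, infected or not. In such tissue, fewer cells of a type and less RNA per cell cannot be told apart.

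NF-κB factors are dimers that bind DNA through a shared Rel domain. In resting cells they are held in the cytoplasm by IκB proteins, and signals from cytokine and Toll-like receptors activate the IKK complex, which marks IκB for degradation and so frees the dimers to enter the nucleus. Ubiquitin chains built on adaptor proteins carry the signal to IKK, and the enzymes A20 and CYLD act against it by removing or editing these chains. RNF146 is itself a ubiquitin ligase, known for marking Axin for degradation in the Wnt pathway. CYLD is known in that pathway as well, as an enzyme that trims ubiquitin from Dishevelled. The activity of NF-κB is set largely by protein modification and location, which RNA levels do not measure.

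The deposited values are on a log2 scale and had been centred within pairs formed by equal replicate numbers. The sum of a gene's eGFP and Rnf146 values is 1 constant across its pairs, so each gene holds its mean and 4 independent pair differences. Differences are Rnf146 minus eGFP, so a positive one means a higher value in the Rnf146 library. Testing used limma with pairs entered as the replicate block, and a gene was called at a Benjamini-Hochberg adjusted p of 0.1 or less over all 15039 genes. In this test 188 genes (1.25%) were called, 123 of them higher (0.818%) and 65 lower (0.432%) in Rnf146-overexpressing mice. *Rnf146*, the overexpressed gene, was higher in all 4 pairs, by between 2.51 and 2.82 (log2), with reads of the vector and of the mouse's gene counted under 1 symbol. Per pair, the median difference of the whole table was from -0.0020 to 0.0037. Read depth is unknown.

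*Cyld* rose in the PFC of Rnf146-overexpressing mice, and it was the one gene of the 10 that was called (1 of 10 against 1.25% of all genes). The other 9 genes had mean differences between -0.13 for *Nfkbia* and 0.03 for *Ikbkg*, with adjusted p-values from 0.412 to 0.975 in limma. Their 95% intervals together ran from -0.26 to 0.16, which is 0.837-fold to 1.12-fold on the deposited scale. Of the 10 genes, 8 had a mean difference within 0.05 of 0. The median of the 10 was -0.01, and the median of all genes was 0.00086. The direction was the same in all 4 pairs for 2 of the 10 genes, against 20.6% of all genes. They were *Cyld* upward, as were 10.4% of all genes, and *Nfkbia* downward, as were 10.2%.

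**Figure D1:**
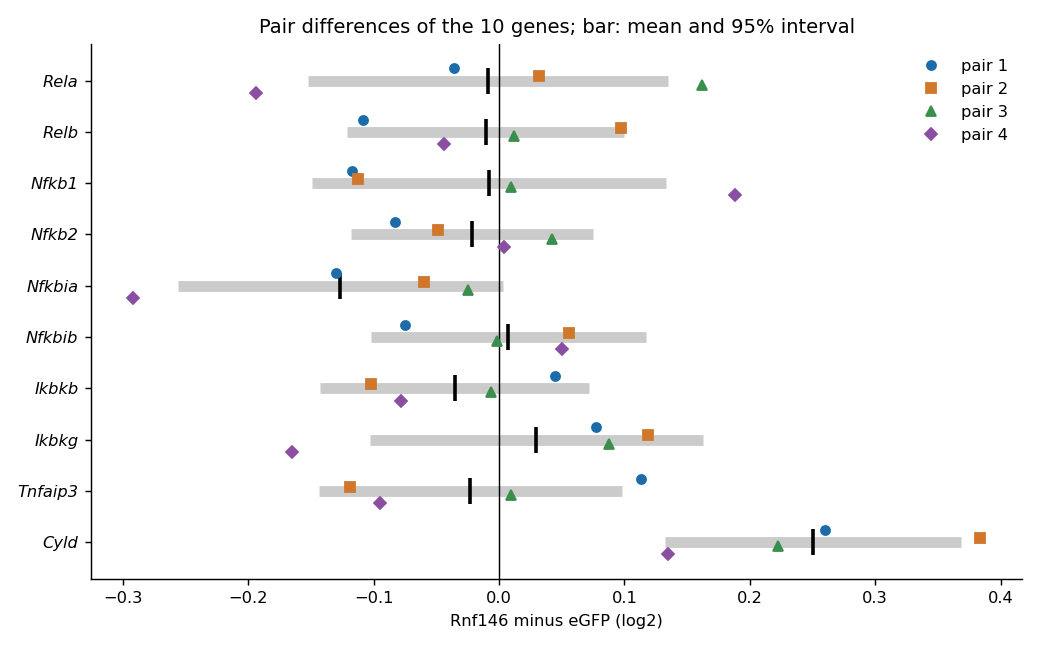
Difference between the Rnf146 and the eGFP library of each pair (log2, horizontal axis) for the 10 genes (vertical axis). Symbols are the 4 pairs, the black tick is their mean and the grey bar its 95% interval from limma with the replicate block; the 4 points of *Cyld* lie between 0.13 and 0.38, and the intervals of the other 9 genes include 0.

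*Cyld* encodes a deubiquitinase that removes linear and lysine-63-linked ubiquitin chains from NF-κB signaling complexes. The gene lies on chromosome 8 of GRCm39, from 89423468 to 89478574 on the plus strand, and the 2 annotated genes within its span are processed pseudogenes on the minus strand that have no row in the table. Its values in the eGFP libraries were 12.12, 12.06, 12.14 and 12.18 in pairs 1 to 4. In the Rnf146 libraries they were 12.38, 12.44, 12.36 and 12.32. The Rnf146 value was the higher one in every pair. Because values are centred within pairs, the gap between the groups only restates this shared sign and is not a comparison of 8 measured levels.

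Within pairs, *Cyld* differed by 0.26, 0.38, 0.22 and 0.13, and its mean difference was 0.25 ± 0.10 (SD, n = 4 pairs), a 1.19-fold increase on the deposited scale (95% interval 1.10 to 1.29). Pair 2 had the largest difference and pair 4 the smallest. The mean was larger than the spread between pairs, with an adjusted p of 0.092 from limma with the replicate block. By unadjusted p, *Cyld* ranked 179 of 15039 genes, so it stood close to the limit of the 188 called genes. An exact sign-flip test of its 4 pairs gave a two-sided p of 0.125, the smallest that 4 pairs allow. *Cyld* is one of the genes that the study had picked out as changed from these same libraries, so its rise here is a description and not separate evidence.

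The call of *Cyld* was lost when any 1 pair was left out, with an adjusted p from limma of 0.103 without pair 1, 0.372 without pair 2, 0.164 without pair 3 and 0.245 without pair 4. The difference itself stayed between 0.21 and 0.29 in these fits. The plot of *Cyld* under each setting gives the other alternatives, in which its sign did not turn.

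**Figure D2:**
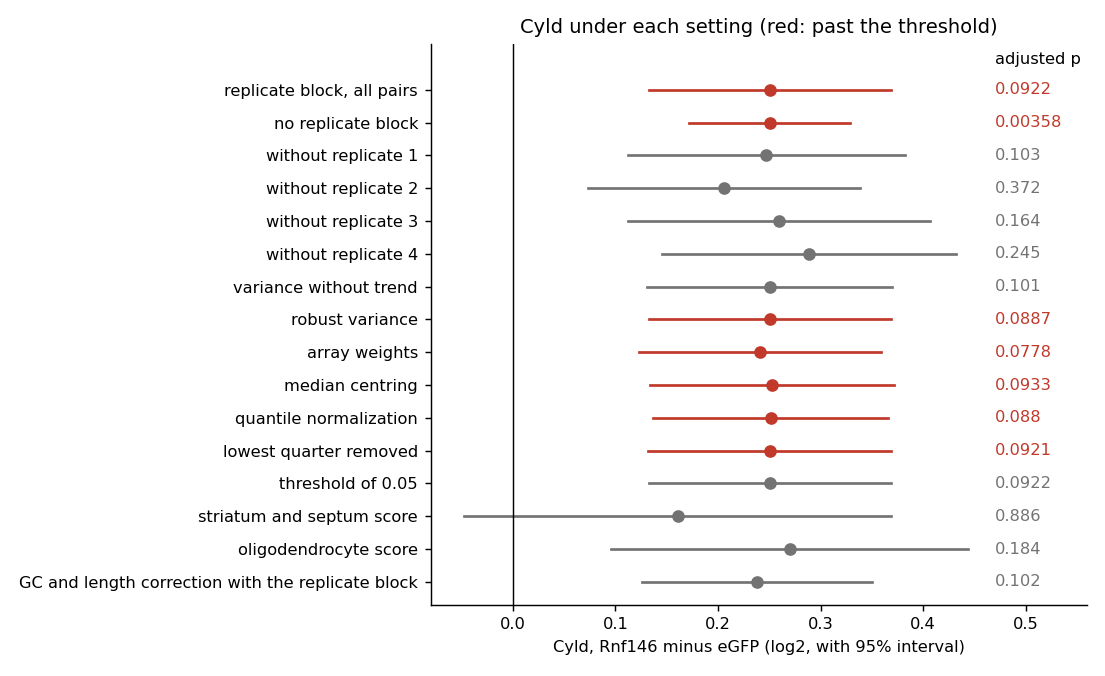
Difference of *Cyld* (log2, horizontal axis, with its 95% interval) in limma with all 4 pairs and the replicate block, at the top, and under 15 other settings (vertical axis), with the adjusted p printed at the right. Red marks the settings in which the gene passed the threshold; the value was above 0 under all 15 and passed in 6.

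*Cyld* and *Nfkbia*, the genes with the same sign in all 4 pairs, had differences of opposite sign. The stretch before their annotated starts is shown because both hold a letter match to a κB site, the DNA element that NF-κB dimers bind. The sequences are from RefSeq's promoter windows on GRCm38.p6, read 5′ to 3′ on the gene's own strand. Those of *Cyld* and *Nfkbia* are the bases before the gene's start. *Cyld* is at chr8:88696778-88697027, plus strand, and *Nfkbia* at chr12:55492648-55492897, minus strand. The third is the match in *Nfkb2* with 10 bases on each side, at chr19:46305695-46305724, plus strand. This match begins 225 bases before 1 annotated start of *Nfkb2* and lies after another. Capitals mark the match to a κB pattern that reads GGGA, any 1 base, then TTTCC, which in *Cyld* and *Nfkbia* lies on the strand opposite to the gene.
Cyld: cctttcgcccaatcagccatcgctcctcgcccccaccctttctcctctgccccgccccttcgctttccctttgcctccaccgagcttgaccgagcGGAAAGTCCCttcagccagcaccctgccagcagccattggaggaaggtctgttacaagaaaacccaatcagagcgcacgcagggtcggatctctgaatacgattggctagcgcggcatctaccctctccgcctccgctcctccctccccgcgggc
Nfkbia: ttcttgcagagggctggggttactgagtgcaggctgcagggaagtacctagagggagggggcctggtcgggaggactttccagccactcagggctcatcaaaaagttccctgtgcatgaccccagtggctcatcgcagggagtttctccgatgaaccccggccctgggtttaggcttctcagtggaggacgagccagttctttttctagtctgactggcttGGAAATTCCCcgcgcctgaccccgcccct
Nfkb2: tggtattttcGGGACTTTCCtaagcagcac

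The match in *Cyld* begins 155 bases before the start, and that in *Nfkbia* begins 29 bases before it. This pattern was searched on both strands of windows that reach from 250 bases before to 50 bases after a start. Such windows were found for 7 of the 10 genes, 13 windows in all, and 4 of these, from *Cyld*, *Nfkbia* and *Nfkb2*, held it. The windows of *Nfkb2* with a match overlap and hold the same site, so the 4 windows stand for 3 sites. Among all 32851 windows of the mouse table, 0.411% did. The general κB consensus, which is looser, was present in 8.46% of all windows and in 6 of the 13, and it added *Tnfaip3* to these genes. The pattern was picked after several had been looked at in these windows, and a match of letters does not show binding.

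The 4 factor genes differed little on average between Rnf146-overexpressing and eGFP-overexpressing mice. *Rela* encodes p65, the activating partner of the most common dimer (GRCm39 chromosome 19, 5687493 to 5698161, plus strand). Pairs 1 to 4 differed by -0.04, 0.03, 0.16 and -0.19, which averaged to -0.01 ± 0.15 (SD, n = 4 pairs). It was thus higher in 2 pairs and lower in 2, and its spread was the widest of the 10 genes. The SD exceeded that of 78.4% of the 500 genes with the closest mean value.

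*Nfkb1* encodes p105, the precursor of the DNA-binding partner p50 (chromosome 3, 135290264 to 135397742, minus strand). It differed by -0.12, -0.11, 0.01 and 0.19 in pairs 1 to 4, on average by -0.01 ± 0.14 (SD, n = 4 pairs). In pair 4, *Nfkb1* and *Rela* stood on opposite sides of 0. The 95% interval was -0.15 to 0.13 for each of the genes, so a change of the size measured for *Cyld* (0.25) lay outside it in both directions.

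*Relb* and *Nfkb2* encode the dimer of the noncanonical branch, RelB with p52 and its precursor p100. *Relb* (chromosome 7, 19339017 to 19363425, minus strand) had differences of -0.11, 0.10, 0.01 and -0.04, on average -0.01 ± 0.09 (SD, n = 4 pairs). *Nfkb2* (chromosome 19, 46292759 to 46303812, plus strand) had -0.08, -0.05, 0.04 and 0.0039, averaging -0.02 ± 0.06, and the narrowest spread of the 10 genes. Both were higher in 2 pairs and lower in 2, and the adjusted p from limma was 0.958 for *Relb* and 0.888 for *Nfkb2*. The mean value of *Nfkb2* was 8.43, close to the lowest value in the table, 7.86, and that of *Relb* was 8.68. How the deposited scale treats such low values is not stated in the sources used here.

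The inhibitors differed from each other in their pattern over the pairs. *Nfkbia* encodes IκBα, which NF-κB itself induces in a well-known feedback loop (chromosome 12, 55535332 to 55539432, minus strand). Its values in the eGFP libraries were 9.46, 9.43, 9.41 and 9.54 in pairs 1 to 4, and in the Rnf146 libraries 9.33, 9.37, 9.38 and 9.25. The Rnf146 value was the lower one in every pair, as for 10.2% of all genes, and with values centred within pairs the gap between the groups adds nothing to that.

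The 4 pairs of *Nfkbia* differed by -0.13, -0.06, -0.02 and -0.29, on average by -0.13 ± 0.12 (SD, n = 4 pairs). The mean was about as large as the spread, the 95% interval ran from -0.26 to 0.00, and limma with the block gave an adjusted p of 0.412. Without the block, in which the 4 differences of a gene are read as 8 separate libraries and 21.5% of all genes were called (10.4% lower), limma gave an adjusted p of 0.064 and *Nfkbia* was called. Without pair 4 the difference was -0.07, as against -0.13 with it, with an adjusted p from limma of 0.759.

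*Nfkbib* encodes IκBβ, an inhibitor that is degraded and replaced more slowly (chromosome 7, 28457486 to 28466937, minus strand). The pairs stood at -0.07, 0.06, -0.0018 and 0.05, averaging 0.01 ± 0.06 (SD, n = 4 pairs), and it was higher in 2 of the 4 pairs. The adjusted p was 0.971 from limma, and the 95% interval was -0.10 to 0.12.

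**Figure D3:**
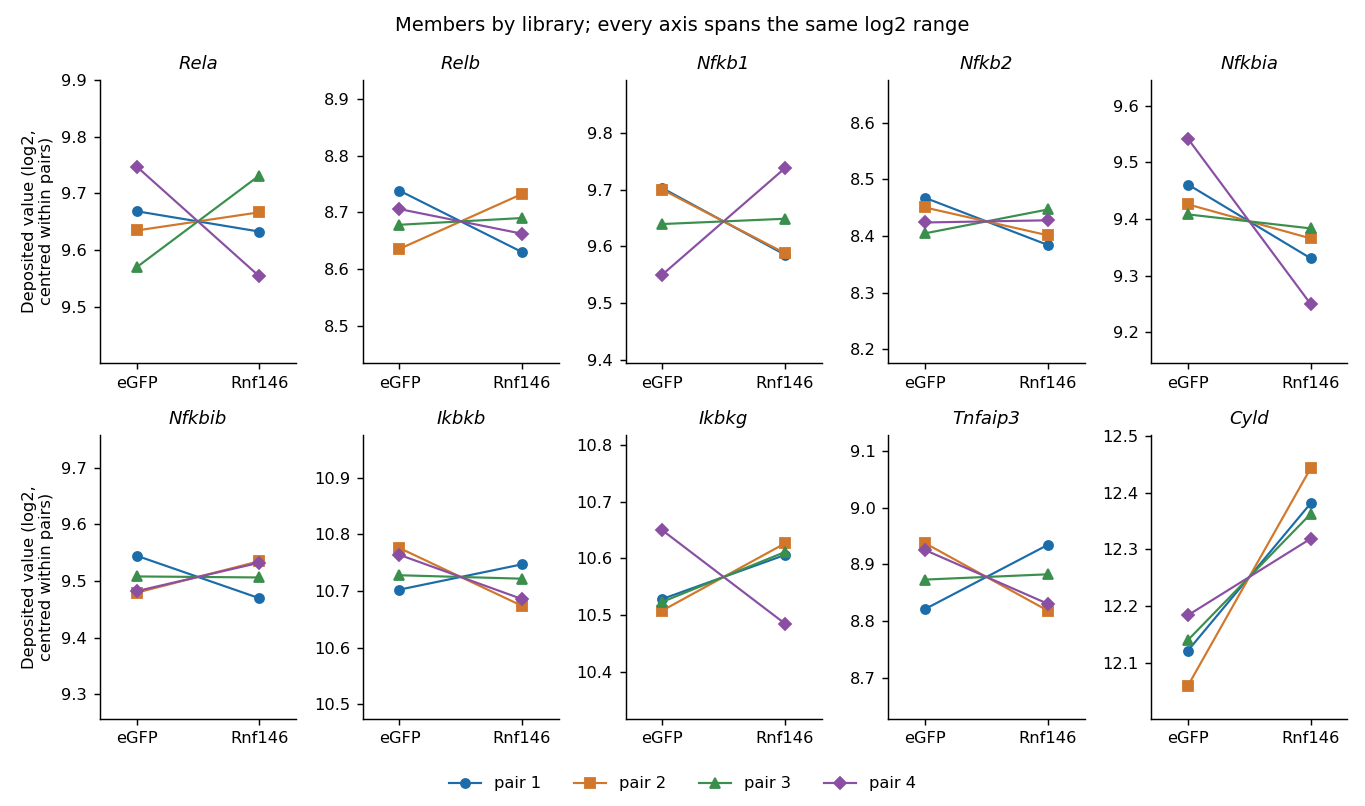
Deposited values (log2, centred within pairs, vertical axis) of the 10 genes in the eGFP and the Rnf146 library of each pair, joined by a line per pair. Each panel spans the same log2 range around the gene's mean; the lines of *Cyld* all rise, those of *Nfkbia* all slope downward, and those of the other 8 genes run both ways.

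In the IKK complex, *Ikbkb* encodes a catalytic subunit, IKKβ, and *Ikbkg* the regulatory subunit NEMO, which binds ubiquitin chains. *Ikbkb* (chromosome 8, 23148709 to 23196607, minus strand) had differences of 0.04, -0.10, -0.01 and -0.08, averaging -0.04 ± 0.07 (SD, n = 4 pairs), and limma gave it an adjusted p of 0.819. *Ikbkg* (chromosome X, 73436216 to 73500393, plus strand) had values of 10.53, 10.51, 10.52 and 10.65 in the eGFP libraries and 10.61, 10.63, 10.61 and 10.48 in the Rnf146 libraries. It was higher in pairs 1 to 3, by 0.08, 0.12 and 0.09, and lower in pair 4, by a difference of -0.16. Its mean was 0.03 ± 0.13 (SD, n = 4 pairs), and without pair 4 it was 0.09, where limma gave an adjusted p of 0.641. *Ikbkg* overlaps *G6pdx* and *Fam3a*, both on the opposite strand, as *Nfkb2* overlaps *Psd* and *Nfkbib* overlaps *Sirt2*. The library kit keeps the strand, but whether the quantification used it is not given in the sources used here. The differences of *G6pdx* were -0.19, 0.19, -0.08 and 0.14 in pairs 1 to 4. The part of overlapping genes in the values of *Ikbkg* was not tested.

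*Tnfaip3* encodes A20, which shares with CYLD the role of taking down ubiquitin signals and is itself a well-known NF-κB target (chromosome 10, 18874201 to 18891405, minus strand). Over pairs 1 to 4 it differed by 0.11, -0.12, 0.01 and -0.10, on average by -0.02 ± 0.11 (SD, n = 4 pairs). Its adjusted p was 0.907 in limma. The 95% interval of *Tnfaip3*, -0.14 to 0.10, lay below that of *Cyld*, 0.13 to 0.37. The difference between these intervals was not tested itself. The mean value of *Tnfaip3* was 8.88, toward the low end of the table, and that of *Cyld* was 12.25.

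In each pair the 10 genes stood on both sides of 0. In pairs 1, 2, 3 and 4, the number of the 10 that were higher in the Rnf146 library was 4, 5, 7 and 4. Pair 3 was the quietest, with a median absolute difference over the 10 genes of 0.018 against 0.080 for all genes. In pair 4 the median absolute difference of the 10 was 0.115 against 0.073 for all genes, and 4 of the 10 had their largest absolute difference in this pair. These were *Rela*, *Nfkb1*, *Nfkbia* and *Ikbkg*.

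The 3 genes whose differences were nearest to those of *Cyld*, by Euclidean distance over the 4 pairs among all 15039 genes, were *Sema3f*, *Pde3a* and *Pptc7*. *Sema3f* encodes a secreted axon guidance cue, *Pde3a* a cyclic nucleotide phosphodiesterase and *Pptc7* a mitochondrial phosphatase. Their distances were 0.081, 0.082 and 0.083 (log2), and their mean differences were 0.24, 0.28 and 0.25. With 4 differences per gene, such likeness is a description of size and order alone.

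The wider pathway was read from 4 lists, chosen by the genes' known roles. Other members of the family were the factor *Rel*, further IκB proteins, further IKK and IKK-related kinases, and κB-Ras genes. They had 9 of 10 genes in the table and 0 called in limma with the replicate block. Their median difference was -0.01. *Ikbke*, an IKK-related kinase of the interferon response, had the smallest p of the list, with an adjusted p of 0.188 from limma. Its difference was -0.17 ± 0.08 (SD, n = 4 pairs), lower in all 4 pairs. Its mean value was 8.42, close to the lowest value in the table, as for *Nfkb2*. *Nfkbiz*, an inducible nuclear IκB protein, came next at -0.10 ± 0.11 with an adjusted p of 0.517 from limma.

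Receptors and adaptors had 29 of 34 genes in the table, with a median difference of -0.02. Of these genes, 1 was called higher, against 0.818% of all genes, and 0 lower. The called gene was *Ngfr*, the p75 neurotrophin receptor, which can signal to NF-κB and is also a marker of basal forebrain neurons. It differed by 0.35, 0.59, 0.12 and 0.49 in pairs 1 to 4, on average by 0.39 ± 0.21 (SD, n = 4 pairs). This gave an adjusted p of 0.070 in limma. The mean value of *Ngfr* was 8.45, near that of *Nfkb2* and likewise close to the lowest value in the table. *Tlr3*, a receptor for double-stranded RNA, had the next smallest p, with 0.20 ± 0.13 and an adjusted p of 0.226 from limma. The receptors *Tnfrsf1a* and *Il1r1* for tumor necrosis factor and interleukin-1 were in the list and were not called.

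The ubiquitin-editing partners, among them the LUBAC subunits that build linear chains and the adaptors that bind CYLD or A20, had 13 of 13 genes in the table. Of these, 0 were called with the block, and the median difference was -0.01. In all 4 pairs, 2 of the 13 were lower, against 10.2% of all genes, and 1 was higher, against 10.4%. *Spata2*, the adaptor that brings CYLD to LUBAC, was lower in all 4 pairs, by differences between -0.16 and -0.06. Its mean was -0.09 ± 0.05 (SD, n = 4 pairs), and its adjusted p from limma was 0.436 in the blocked fit but 0.027 in the unblocked one. The unblocked fit called 10.4% of all genes lower, and 2 of the 13. *Zranb1*, which encodes another deubiquitinase, had 0.11 ± 0.14 and an adjusted p of 0.50 from limma.

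Target genes of NF-κB had 15 of 28 genes in the table. The other 13, among them the cytokine and chemokine genes *Il1b*, *Il6*, *Tnf* and *Ccl2*, had no row and were not analysed here. Of the 15, 0 were called with the block, 11 had a negative mean difference and 4 a positive one. In all 4 pairs, 5 were lower, against 10.2% of all genes, and 1 was higher, against 10.4%. The median of the 15 was -0.05, and that of all genes was 0.00086. *Vcam1*, an adhesion molecule of endothelium, had -0.17 ± 0.08 and *Ptgs2*, the inducible cyclooxygenase, -0.22 ± 0.16 (SD, n = 4 pairs), each at an adjusted p of 0.223 from limma. Without the block, 1 of the 15 was called higher and 5 lower, in a fit that called 21.5% of all genes.

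**Figure D4:**
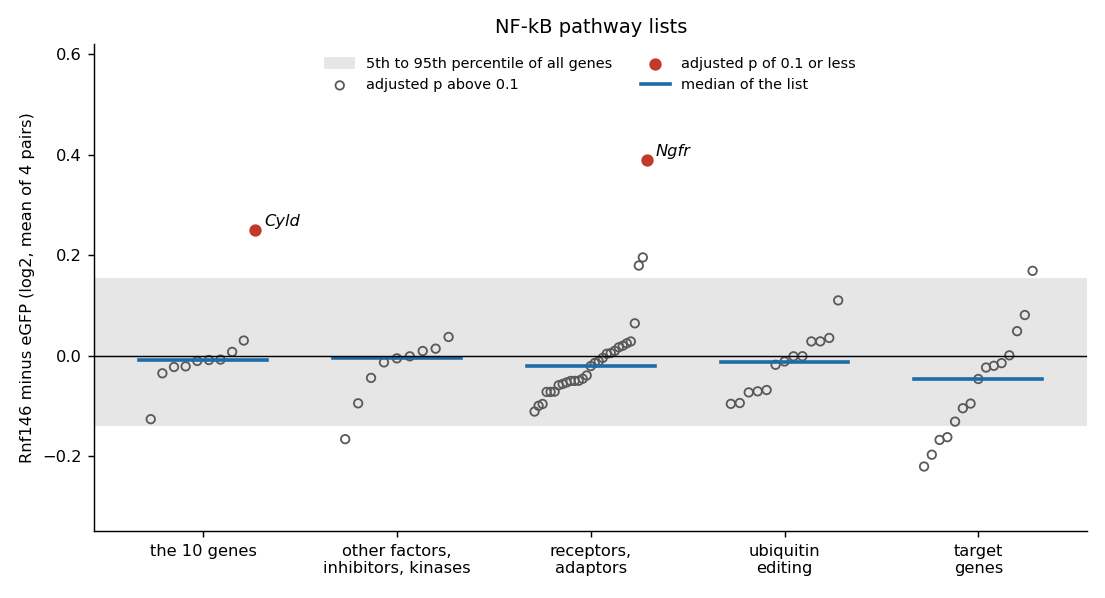
Mean difference between Rnf146 and eGFP libraries (log2, vertical axis) of each gene in the 10 genes and the 4 pathway lists (horizontal axis). Filled red points passed an adjusted p of 0.1 in limma with the replicate block (*Cyld* and *Ngfr*), blue bars are list medians, and the grey band holds the 5th to 95th percentile of all genes, from -0.14 to 0.15.

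Marker genes of cell types and of regions next to the PFC differed between the groups as well, and their values stand here beside those of *Cyld* and *Nfkbia*. All 10 markers of cortical excitatory neurons were in the table, and so were all 12 striatal markers and 5 of 9 markers of septum and basal forebrain. These 5 were *Zic1* to *Zic4* and *Slc5a7*, while *Lhx8*, *Gbx1*, *Chat* and *Slc18a3* had no row. The septal list was higher in all 4 pairs, by 0.59, 0.69, 0.32 and 0.59. All 5 of its genes were called higher, against 0.818% of all genes. The mean level of the septal list ran from 9.31 to 9.50 in the eGFP libraries and from 9.82 to 10.01 in the Rnf146 libraries. Because values are centred within pairs, the levels of any list in the groups mirror each other and only restate its pair differences. The striatal list differed by -0.10, 1.27, 0.66 and 0.27, with 0 of 12 genes called and levels of 9.97 to 10.65 against 10.55 to 11.23. In pair 1, in which the striatal list was at -0.10 and the septal list at 0.59, *Cyld* differed by 0.26. Pair 2 held the largest difference of all of these, with *Cyld* at 0.38, the striatal list at 1.27 and the septal list at 0.69.

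With the mean of the striatal and septal lists as a covariate beside the block, the difference of *Cyld* was 0.16 with an adjusted p from limma of 0.886, and 3 genes of the whole table were called. The septal list in this covariate was itself higher in all 4 pairs, so the fit cannot separate the covariate from the vector given. The part of these regions in the rise of *Cyld* was not tested. The oligodendrocyte list differed by -0.16, 0.43, 0.79 and 0.50 (12 of 12 genes in the table, 0 called, levels of 11.33 to 11.80 in the eGFP and 11.64 to 12.12 in the Rnf146 libraries). With this list as the covariate, *Cyld* was at 0.27 with an adjusted p of 0.184 from limma. In pair 1 the oligodendrocyte list was lower and *Cyld* higher, and in pairs 2 to 4 both were higher.

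The microglia list, 12 of 12 genes in the table, is of interest beside *Nfkbia* because these immune cells use NF-κB signaling. It was lower in all 4 pairs, by differences of -0.19, -0.25, -0.10 and -0.17. Of its genes, 2 of 12 were called lower, against 0.432% of all genes, and 0 higher. The mean level of the microglia list was 10.16 to 10.24 in the eGFP libraries and 9.99 to 10.06 in the Rnf146 libraries. With values centred within pairs, this gap only restates the shared sign. In pairs 1 to 4, *Nfkbia* differed by -0.13, -0.06, -0.02 and -0.29. It was farthest from 0 in pair 4 and the microglia list in pair 2, and both were nearest to 0 in pair 3. The list of cortical excitatory neurons was also lower in all 4 pairs, by a mean of -0.21 ± 0.13 (SD, n = 4 pairs). Of its genes, 2 of 10 were called lower, against the same 0.432%. The part of these cells in the values of *Nfkbia* was not tested.

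Astrocyte and endothelial markers averaged -0.01 ± 0.05 and 0.00 ± 0.06 (SD, n = 4 pairs), with 0 of 8 genes called in each. Ependymal markers averaged 0.33 ± 0.11, with 2 of 6 genes in the table and both called higher, against 0.818% of all genes. The interneuron list was split, with 3 of its 6 genes positive and 3 negative, around a mean of 0.22 ± 0.07. *Gad1*, *Gad2* and *Slc32a1*, which GABAergic neurons share whatever their region, were called higher, at 0.45, 0.64 and 0.53 (3 of 6, against 0.818% of all genes). The subtype markers *Pvalb*, *Sst* and *Vip* were at -0.03, -0.06 and -0.23 and were not called. *Vip* was below 0 in all 4 pairs, as were 10.2% of all genes.

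**Figure D5:**
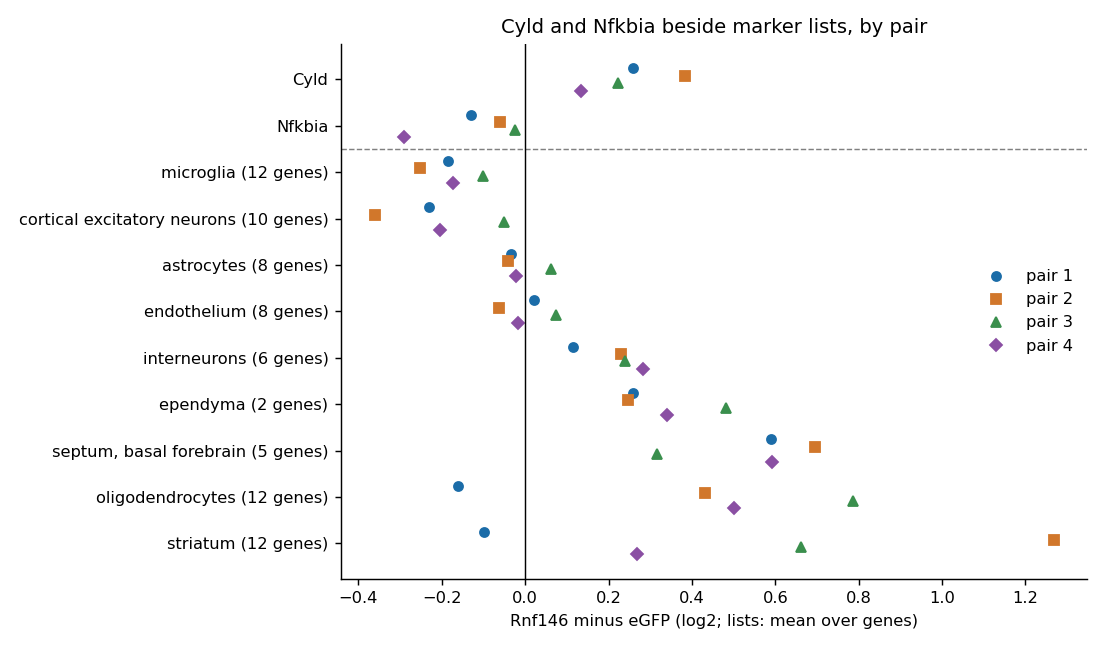
Differences between the Rnf146 and the eGFP library of each pair (log2, horizontal axis) for *Cyld*, *Nfkbia* and the mean of each marker list (vertical axis, with the number of genes in the table). The means of the septal, ependymal and interneuron lists lie above 0 in all 4 pairs (3 of the 6 interneuron genes have a negative difference). Those of the microglial and cortical excitatory lists lie below 0 in all 4, and that of the striatal list runs from -0.10 to 1.27.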

How the data were processed

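PFC RNA of 8 mice, 4 given each vector, was sequenced as 1 library per sample label with a TruSeq stranded mRNA kit. After trimming with Cutadapt, the authors ran Salmon 1.9.0 against GENCODE vM30 (GRCm39). DESeq2 is named in the submitters' processing notes with no role. The deposited values are named normalized counts but are log2 values, from 7.86 to 18.8. The deposited log2 values are centred within same-numbered pairs (pair sums agree within 1.4e-13), which fixes the correlation of the pairs' deviations at -1. The transformation and the centring are not given in the sources used here, and without counts the depth, and the precision it gives, is unknown.

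Groups and replicate numbers came from the sample titles. The fits used limma 3.58.1 (R 4.3.3; eBayes with trend, 3 residual degrees of freedom with the replicate block and 6 without it), two-sided, and checked on simulated data. The pairing comes from the replicate numbers and the centring. Nothing in the sources says what the mice of a pair shared, and p-values measure the spread between these pairs. Gene positions are from GENCODE vM39 (GRCm39), GC content and length from its longest transcripts (14590 genes), and promoter windows from RefSeq on GRCm38.p6. Python 3.11.15 was used for the other steps.

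The genes, lists and tests were chosen with earlier results of these data known. Named genes were the 10 members, *Rnf146*, in each pathway list those called and the pair with the smallest p, and the 3 genes nearest to *Cyld*. *G6pdx*, *Fam3a*, *Psd*, *Sirt2*, *Rel*, *Tnfrsf1a*, *Il1r1*, the interneuron and septal markers and the targets without a row fall outside this rule. Alternatives were no block, each pair left out, 3 other variance or weight settings, median centring, quantile normalization, removal of the lowest 25% of genes, an adjusted p of 0.05, both marker scores as covariates, and adjustment of the values for GC content and transcript length.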

Additional observations from a re-analysis of the deposited data

Results flagged for a closer look

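In *Ikbkg*, the gene of NEMO, pair 4 stood apart from the others. The gap between its difference of -0.16 and the nearest of the other pairs took up 0.856 of the range of the 4 values, above the 95% critical value of Dixon's test for 4 values. The differences of the other pairs lay between 0.08 and 0.12.

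The mean of the 13 ubiquitin-editing genes was between -0.03 and -0.02 in pairs 1 to 3 and 0.0036 in pair 4, with a gap of 0.867 of the range. All 4 values are near 0. In all, 32 genes and lists were looked at in this way and 2 stood out, where chance gives about 1 in 20. Since the values are centred within pairs, the same ratio holds in both groups, and it cannot be told which mouse of pair 4 differed.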

How the results depend on the processing

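The pair differences leave 3 residual degrees of freedom, and without counts no limit from depth can be given. *Cyld* stayed above 0 under all 15 other settings, from 0.16 to 0.29, and kept its call in 6 of them. The call was lost with each pair left out (values from 0.21 to 0.29), and also with variances without a trend (0.25), an adjusted p of 0.05 (0.25), the striatal and septal score (0.16), the oligodendrocyte score (0.27) and the correction for GC content and length (0.24). In these settings 0 of the 10 genes were called, higher or in all. The cause was not tested.

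Without the replicate block, 3226 genes were called, 1655 higher and 1571 lower, and of the 10 genes 2 were called, with *Nfkbia* as the 1 that was lower. This fit takes the 8 pair-centred values of a gene for separate libraries. Leaving out a pair gave 14 to 421 called genes in the table, 14 to 302 higher and 0 to 119 lower, and 0 of the 10 genes. The count was 421 without pair 1, 42 without pair 2 and 14 without pair 4. Array weights gave 355 (221 higher, 134 lower) and an adjusted p of 0.05 gave 80 (67 and 13). The striatal and septal score left 3 (2 and 1), the oligodendrocyte score 113 lower and the GC and length correction 35 lower. The causes were not tested.

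Among the other 9 genes, 109 of 132 values kept direction and call, 22 turned sign and 1, *Nfkbia* without the block, became a call. *Nfkbia* stayed below 0 under all 15 settings. With a pair left out, *Nfkb1* ran from -0.073 to 0.028, *Rela* from -0.066 to 0.053, *Relb* from -0.047 to 0.022, *Nfkbib* from -0.0089 to 0.035 and *Tnfaip3* from -0.068 to 0.0092. *Nfkb1* was 0.019 with array weights. With the striatal and septal score, *Nfkb1* was 0.036, *Nfkbib* -0.048, *Tnfaip3* 0.076, *Ikbkb* 0.028 and *Ikbkg* -0.034. With the oligodendrocyte score, *Nfkbib* was -0.033 and *Tnfaip3* 0.038. With the GC and length correction, *Nfkb1* was 0.016, *Nfkb2* 0.024, *Rela* 0.028 and *Relb* 0.014. Removing the lowest 25% of genes took out 3 of the 10, *Nfkb2*, *Relb* and *Tnfaip3*.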
